A study of Drosophila melanogaster with 6 samples.

Results

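The genes described here encode the subunits of the proteasome in Drosophila melanogaster. They were chosen by name: every gene whose symbol starts with Rpn, Rpt, Prosalpha or Prosbeta, which gave 47 of 17398 genes in the tables of experiment 2. Of these, 32 are the subunits of the general proteasome, called ovary-type below, and 15 are paralogues whose symbols add a T or an R to a subunit name, some with a further digit, called testis-type below. The ovary-type genes comprise 7 alpha and 7 beta subunits of the core particle, 10 subunits of the base and 8 of the lid of the regulatory particle. RNA immunoprecipitation followed by sequencing (RIP-seq) had been done on ovary lysate of wild-type Oregon-R females at 12 hours post eclosion, from about 200 females per experiment. Each lysate was divided for recovery with anti-Lsd1, with anti-Bre1 or with IgG as the background reaction, and this was done in 2 experiments, which gave 6 libraries and 2 per antibody. Lsd1 is a histone demethylase and Bre1 a ubiquitin ligase that acts on a core histone. The study asked which RNAs, noncoding ones above all, come down with either protein relative to IgG, and the proteasome mRNAs are part of the messenger RNA background of that question. All groups share strain, tissue and age, and no library of RNA taken before precipitation was analysed here.

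The proteasome is the protease that destroys proteins marked with ubiquitin chains. Its core particle is a barrel of stacked rings, in which the outer alpha rings gate the entrance and the inner beta rings hold the peptidase sites. The regulatory particle caps the barrel: its base binds ubiquitin chains and unfolds substrates with a ring of Rpt ATPases, and its lid removes the chains. The subunits are needed together, and their mRNAs are widely expressed. Drosophila also carries paralogous subunit genes that are transcribed mainly in the male germline. In the ovary, proteasomal degradation acts among other processes on cyclins during the meiotic divisions.

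The depth differed widely between libraries. Outside ribosomal RNA, the IgG, Lsd1 and Bre1 libraries of experiment 1 held 1430768, 1578630 and 206567 fragments, and those of experiment 2 held 8739562, 1619605 and 7447852 exon reads in the same order. Genes with a level of at least 1 numbered 6243, 6695 and 2036 in experiment 1 and 6561, 1416 and 5485 in experiment 2. The Bre1 library of experiment 1 and the Lsd1 library of experiment 2 therefore stood apart from the rest, and in the latter ribosomal RNA took 88.7% of exon reads against 57.6% with IgG and 76.3% with Bre1. Of 10 ovarian germline markers, 8, 9 and 5 reached a level of 1 in experiment 1 and 9, 3 and 9 in experiment 2, again in the order IgG, Lsd1, Bre1, and their summed levels ran from 21.5 to 587. In the Lsd1 library of experiment 2 the germline marker osk was at an RPKM of 1.56 against 359 with IgG, and vas at 16.5 against 84.1. The markers bam and bgcn were at 0 there, against 6.03 and 0.0546 with IgG, so bgcn was next to absent in both. Of 8 ovary soma markers 2 reached 1 with Lsd1 and 4 with IgG in experiment 2. Of 6 gut markers 2 reached 1 with IgG and with Lsd1 in experiment 1, and 0 in experiment 2. All 6 muscle sheath markers reached 1 in the Lsd1 library of experiment 2, with a summed level of 74.0 against 85.1 with IgG. The part that this difference in marker levels has in the values of the proteasome mRNAs was not tested. The libraries of an experiment came from parts of a common lysate, so these gaps within an experiment lie between recoveries from the same cells. Between the experiments, fewer cells of a type and less RNA per cell cannot be told apart in such bulk samples.

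All 32 ovary-type mRNAs passed the filter for testing, a level of 1 or more in any 2 libraries, and none of the 15 testis-type mRNAs did. The ovary-type mRNAs together took 0.489% (IgG), 0.437% (Lsd1) and 0.253% (Bre1) of the fragments of experiment 1 that lay outside ribosomal RNA. Of the reads of experiment 2 they took 0.350%, 0.461% and 0.469% in the same order. The exact 95% binomial interval was widest for Bre1 in experiment 1, at 0.232% to 0.275%, and such intervals cover counting error only. Within an experiment the share was thus highest with IgG in experiment 1 and lowest with IgG in experiment 2.

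Levels are given as deposited, in FPKM for experiment 1 and RPKM for experiment 2, both per length of transcript or exon. In the IgG library of experiment 1 the core mRNAs ranged from 12.1 (Prosbeta1) to 33.1 (Prosalpha2), with a median of 20.9 over the 13 other than Prosalpha1, which has no measurement in experiment 2 and is left out of these medians. The regulatory mRNAs in that library ranged from 7.47 (Rpt4) to 16.0 (Rpn11) with a median of 10.1, so core mRNAs stood above most regulatory ones. In the IgG library of experiment 2 the medians were 11.8 for the core and 15.6 for the regulatory particle, and the order was turned. The ratio of the core median to the regulatory median was 2.07 (IgG), 1.97 (Lsd1) and 0.712 (Bre1) in experiment 1. In experiment 2 it was 0.756, 0.285 and 0.619 in the same order. The experiments were quantified by different means, so a difference between them and a difference between quantifications cannot be told apart. Within an experiment all libraries were quantified alike.

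**Figure D1:**
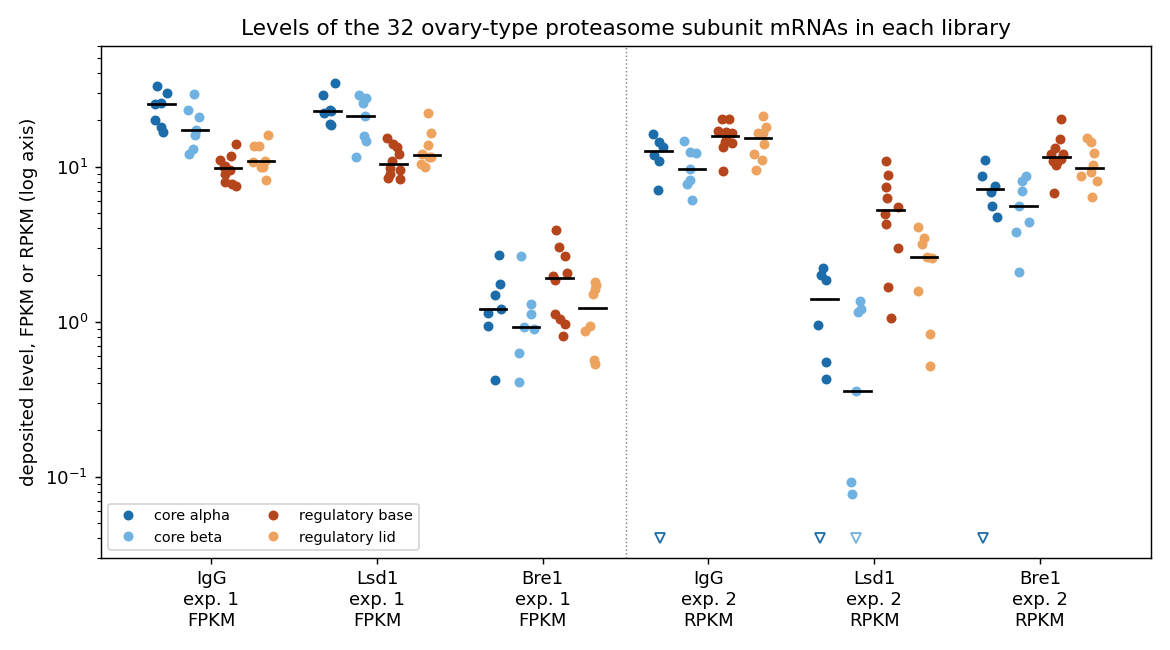
Deposited level (FPKM in experiment 1, RPKM in experiment 2, log axis) of each of the 32 ovary-type mRNAs in each of the 6 libraries, coloured by role; black bars are medians of a role (without Prosalpha1 in experiment 2) and open triangles at the foot mark members listed at 0. Core points lie mostly above regulatory points with IgG and Lsd1 in experiment 1 and mostly below them with Lsd1 in experiment 2.

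The ovary-type genes are spread over the genome (build dm6), with 4 on 2L, 10 on 2R, 5 on 3L, 9 on 3R and 4 on X. Another gene overlaps 16 of them, mostly on the opposite strand and for 12 by at most 139 bases. The kit kept no record of the strand, so reads within the overlapped bases cannot be told apart, while 96.6% of the exon reads of the ovary-type genes were counted as unique in the IgG library of experiment 2. In the alpha ring, Prosalpha1 has a neighbour on 2R, CG30382 (7830413 to 7831771), named Prosalpha1R in the reference gene table, with which it shares its reads. In experiment 1 the fragments were split evenly, with 207 for Prosalpha1 and 208 for CG30382 in the IgG library. In experiment 2 Prosalpha1 (2R, 7827303 to 7828678) was listed at 0 in all 3 libraries, while CG30382 held 1349 (IgG), 65 (Lsd1) and 957 (Bre1) reads, none of them unique. The log2 ratios of 0 for Prosalpha1 in experiment 2 are therefore no measurement, and its level there is unknown. Medians and counts of experiment 2 below leave it out, and its fitted changes and the fitted medians contain those listed zeros. For CG30382 itself the log2 ratios were -1.70 for Lsd1 and -0.43 for Bre1 in experiment 2.

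Log2 ratios below set an antibody library against its IgG partner, after scaling of the libraries and addition of a pseudocount of 1, which understates the change of low genes. A single ratio has no error of its own. The fitted change is the mean over the 2 experiments from limma, given with its standard error (SE).

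Prosalpha2 was the most abundant alpha mRNA with IgG and Lsd1 in experiment 1, and its levels there were 33.1 (IgG), 34.4 (Lsd1) and 1.13 (Bre1) FPKM. In experiment 2 its RPKM was 11.8, 0.549 and 5.55 in this order. Within each experiment it was thus lowest in the library that stood apart. Its log2 ratios were -0.26 and -1.49 for Lsd1 and -2.55 and -0.36 for Bre1 in experiments 1 and 2, below 0 in all 4 comparisons. Prosalpha6 had 302 (IgG), 239 (Lsd1) and 3 (Bre1) fragments in experiment 1, and 563, 48 and 549 reads in experiment 2. Its log2 ratio for Bre1 was -3.13 in experiment 1 and 0.00 (just below 0) in experiment 2, so a single library carried its fitted change of -1.57 (SE 0.78). Prosalpha4 had an FPKM of 16.7 (IgG), 23.2 (Lsd1) and 0.940 (Bre1), and an RPKM of 16.2, 1.84 and 7.47. Its Lsd1 ratios of 0.13 and -0.62 had opposite signs, and its Bre1 ratios of -1.82 and -0.41 were both below 0. The other alpha mRNAs with reads in both experiments, Prosalpha3, Prosalpha5 and Prosalpha7, had Lsd1 ratios of -0.36, -0.49 and -0.25 in experiment 1 and -0.39, -1.09 and -0.14 in experiment 2. All 3 were below 0 both times. For Bre1 they stood at -1.38, -2.11 and -1.40 in experiment 1 and at 0.24, 0.07 and 0.03 in experiment 2, opposite in sign between the experiments.

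The beta ring holds the peptidases: Prosbeta1 has the caspase-like site, Prosbeta2 the trypsin-like site and Prosbeta5 the chymotrypsin-like site, while the other beta subunits are structural. Prosbeta1 (2R, 16013805 to 16014787) had 108 (IgG), 93 (Lsd1) and 4 (Bre1) fragments in experiment 1. In experiment 2 it had 337 reads with IgG, 242 with Bre1 and none with Lsd1. No other ovary-type mRNA except Prosalpha1 was listed at 0 in any library. Its Lsd1 ratios were -0.34 and -2.36, the lowest Lsd1 ratio of any member, and its Bre1 ratios were -1.44 and -0.35. Prosbeta2 and Prosbeta5 had Lsd1 ratios of 0.08 and -0.41 in experiment 1 and -0.98 and -0.80 in experiment 2. In the Bre1 comparison Prosbeta2 stood at -1.95 and -0.18, and Prosbeta5 at -1.78 and 0.13. With Lsd1 in experiment 2 the median of all tested genes was -0.84, so Prosbeta2 and Prosbeta5 lay near the typical gene there and Prosbeta1 below it. With Bre1 in experiment 1 that median was -0.40, and all 3 catalytic subunits lay below it.

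Among the structural beta subunits, Prosbeta4 (2L, 16731180 to 16732133) had 305 (IgG), 3 (Lsd1) and 128 (Bre1) reads in experiment 2, and 102, 111 and 2 fragments in experiment 1. Its log2 ratios were -0.04 and -2.02 for Lsd1 and -2.22 and -0.87 for Bre1. It was the member farthest below IgG with Bre1 in experiment 2. Prosbeta6 had 302, 266 and 4 fragments in experiment 1 and 565, 16 and 488 reads in experiment 2. The ratios of Prosbeta6 were -0.33 and -1.88 for Lsd1 and -2.98 and -0.15 for Bre1, all 4 below 0. Prosbeta3, a gene with 1 exon, had 229, 227 and 8 fragments and then 268, 4 and 298 reads, with ratios of -0.17 and -1.70 for Lsd1 and -1.91 and 0.14 for Bre1. Of the beta mRNAs Prosbeta7 lay nearest to IgG in each comparison: its ratios were -0.03 and -0.33 for Lsd1 and -0.66 and -0.10 for Bre1.

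In the base, Rpn1 and Rpn2 are the 2 large scaffold subunits, and Rpn10, Rpn13 and Rpn1 bind ubiquitin chains. Rpn2 (3R, 29153524 to 29157255) had 429 (IgG), 437 (Lsd1) and 110 (Bre1) fragments in experiment 1, and 3363, 1765 and 5148 reads in experiment 2. Its Bre1 ratios of 0.61 and 0.60 were the largest that had the same sign in both experiments and lay above 0, whereas its Lsd1 ratios of -0.12 and 1.43 had opposite signs. Rpn1 had 314, 343 and 47 fragments and 2086, 1281 and 3401 reads in the same order. For Rpn1 the Lsd1 ratios were -0.03 and 1.61, the second being the highest Lsd1 ratio of any member, and the Bre1 ratios were -0.08 and 0.66. Rpn10 had an RPKM of 13.4 (IgG), 7.37 (Lsd1) and 10.9 (Bre1) in experiment 2, and its ratios were -0.17 and 1.42 for Lsd1 and -0.37 and 0.32 for Bre1. Rpn13 stood at 9.37, 5.46 and 6.74 RPKM, with ratios of -0.04 and 1.46 for Lsd1 and -0.31 and 0.15 for Bre1. These 4 non-ATPase subunits had Lsd1 ratios just below 0 in experiment 1 and the 4 highest Lsd1 ratios of all members in experiment 2. With the values as deposited, all 31 measured members lay below IgG in that comparison. Rpn1 stood at an RPKM of 8.86 with Lsd1 and 14.2 with IgG, and Rpn2 at 10.9 and 20.3. Lsd1 ratios above 0 in experiment 2 thus depend on the scaling of the libraries.

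The 6 Rpt ATPases form the unfolding ring and were less alike. Rpt1 had Lsd1 ratios of -0.06 and 0.81 and Bre1 ratios of 0.02 and 0.15, with an RPKM of 14.3, 4.96 and 10.2 for IgG, Lsd1 and Bre1. Its whole locus on 2R (7652440 to 7653954, 1 exon) lies inside CG17985 on the same strand, and none of its 1048, 357 and 1150 reads of experiment 2 was counted as unique, so reads of the overlapping genes cannot be told apart there. Rpt2 and Rpt4 had Lsd1 ratios of -0.20 and -0.06 in experiment 1 and 0.91 and 0.44 in experiment 2. Their Bre1 ratios were -0.85 and -0.95, then 0.06 and 0.20. Rpt5 was the ATPase mRNA that lay lowest with Lsd1: its FPKM was 10.1 (IgG), 8.33 (Lsd1) and 1.11 (Bre1), and its RPKM 16.8, 1.05 and 13.2. The ratios of Rpt5 were -0.52 and -1.31 for Lsd1 and -0.99 and 0.28 for Bre1. Rpt3 and Rpt6 also lay below 0 with Lsd1 both times, at -0.05 and -0.63 and at -0.17 and -0.33. For Bre1 Rpt3 stood at -0.40 and 0.15 and Rpt6 at -0.91 and -0.10.

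In the lid, Rpn11 is the deubiquitinase and Rpn8 its partner, and the other 6 subunits form the scaffold. Rpn11 had an FPKM of 16.0 (IgG), 22.2 (Lsd1) and 1.71 (Bre1), and an RPKM of 18, 1.57 and 9.27. Its Lsd1 ratios of 0.13 and -0.95 differed in sign, and its Bre1 ratios of -1.10 and -0.27 were both below 0. Rpn8 stood at -0.04 and 0.15 for Lsd1 and at -0.80 and 0.42 for Bre1, and 2653 bases of its locus overlap Slik on the opposite strand, whose reads an unstranded kit cannot separate. Rpn5 had 1947 (IgG), 75 (Lsd1) and 2165 (Bre1) reads in experiment 2, and Lsd1 ratios of 0.18 and -1.85. It had the highest Lsd1 ratio of all members in experiment 1 and the lowest of the regulatory particle in experiment 2. Its Bre1 ratios were -0.92 and 0.17. Rpn7 lay at -0.21 and 0.75 with Lsd1 and at -0.66 and 0.35 with Bre1. Rpn9 lay at -0.26 and -1.27, and at -1.02 and 0.07. Rpn3, Rpn6 and Rpn12 had Lsd1 ratios of -0.11, -0.32 and -0.30 and then 0.29, -0.23 and 0.24. The Bre1 ratios of these scaffold subunits were -1.69, -1.73 and -1.23 in experiment 1 and 0.26, 0.21 and -0.11 in experiment 2.

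The Lsd1 libraries were compared with IgG to ask which subunit mRNAs were recovered with Lsd1 beyond the background reaction. No subunit mRNA passed the test, and none was above IgG in both experiments. In experiment 1 28 of 32 lay below IgG, against 44.4% of all tested genes, and in experiment 2 20 of the 31 measured did, against 83%. Below a log2 ratio of -1 were 0 members in experiment 1 and 9 in experiment 2, against 0.523% and 42.7% of all tested genes. Below IgG in both experiments were 16 of the 31 with both measurements, 11 of 13 core and 5 of 18 regulatory mRNAs, while 34.7% of all tested genes lay below 0 both times and 6.43% above. The median log2 ratio of the 32 mRNAs was -0.17 in experiment 1, where that of all tested genes was 0.03. In experiment 2 it was -0.39 over 31 mRNAs against -0.84, so the subunit mRNAs lay below the typical gene in experiment 1 and above it in experiment 2. With the values as deposited these medians were 0.119 against 0.285 and -2.43 against -2.02, and with upper quartile scaling -0.260 against -0.029 and 1.08 against -0.048. The sign of the subunit median in each experiment thus depends on how libraries are scaled. Its place below the typical gene in experiment 1 held under every alternative of scaling, pseudocount, length correction and gene copy tried, with a gap of -0.235 to -0.085 over the 31 mRNAs. In experiment 2 the gap above the typical gene, 0.455, ran from 0.034 with quantile normalization and 0.047 at a pseudocount of 5 to 1.16 at a pseudocount of 0.1, and was -0.413 with the values as deposited. That gap thus depends on the processing: it nearly vanished in 2 settings and changed sign with the values as deposited.

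In limma, 0 of 32 members passed a Benjamini-Hochberg adjusted p of 0.05 for Lsd1, with adjusted p-values from 0.962 to 0.998, against 2 of 6687 tested genes, which is 0.0299%. At an unadjusted p under 0.05 there were 0 members against 157 genes, 2.35%. On read counts, edgeR called 0 members and 0 genes, and DESeq2 called 0 members among 10 of the 3446 genes with an adjusted p, 0.29%. The 6 members with the largest fitted change of the same sign in both experiments were Prosbeta1 (-1.35, SE 0.73), Prosbeta6 (-1.11, SE 0.79), Prosbeta4 (-1.03, SE 0.73), Prosbeta3 (-0.93, SE 0.76), Rpt5 (-0.91, SE 0.76) and Prosalpha2 (-0.88, SE 0.79). Their adjusted p was 0.962 each, and 5 of the 6 belong to the core particle. These p-values rest on how far antibody ratios differ between the 2 experiments, a spread taken mostly from genes of like abundance. Part of that spread may be technical, and no more than 2 libraries per antibody limit the precision. Without the Lsd1 library of experiment 1, limma called 1712 genes, 25.6%, of which 1642 were lower, and 5 of 32 members: Prosbeta1, Prosbeta4, Prosbeta6, Prosbeta3 and Rpn5. Their fitted changes were then -2.49, -2.24, -2.50, -2.11 and -2.07, and their adjusted p-values 0.00952, 0.0125, 0.0289, 0.0331 and 0.0400. Without the Lsd1 library of experiment 2, Prosbeta6, Prosbeta4, Prosbeta3 and Prosalpha2 had fitted changes of 0.39, 0.30, 0.35 and 0.29, although their ratios to the IgG partner in experiment 1 were -0.33, -0.04, -0.17 and -0.26. With 1 Lsd1 library left, the fit sets it against an IgG level that is estimated in part from the Bre1 libraries through the experiment term, so such a sign does not describe Lsd1 over IgG. The fit without the Lsd1 library of experiment 1 is built alike, and there the direct ratios of the 5 called members were -2.36, -2.02, -1.88, -1.70 and -1.85. For Prosbeta6, Prosbeta4, Prosbeta3 and Prosalpha2, Lsd1 ratios of -1.49 or lower were found in the Lsd1 library of experiment 2 alone.

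**Figure D2:**
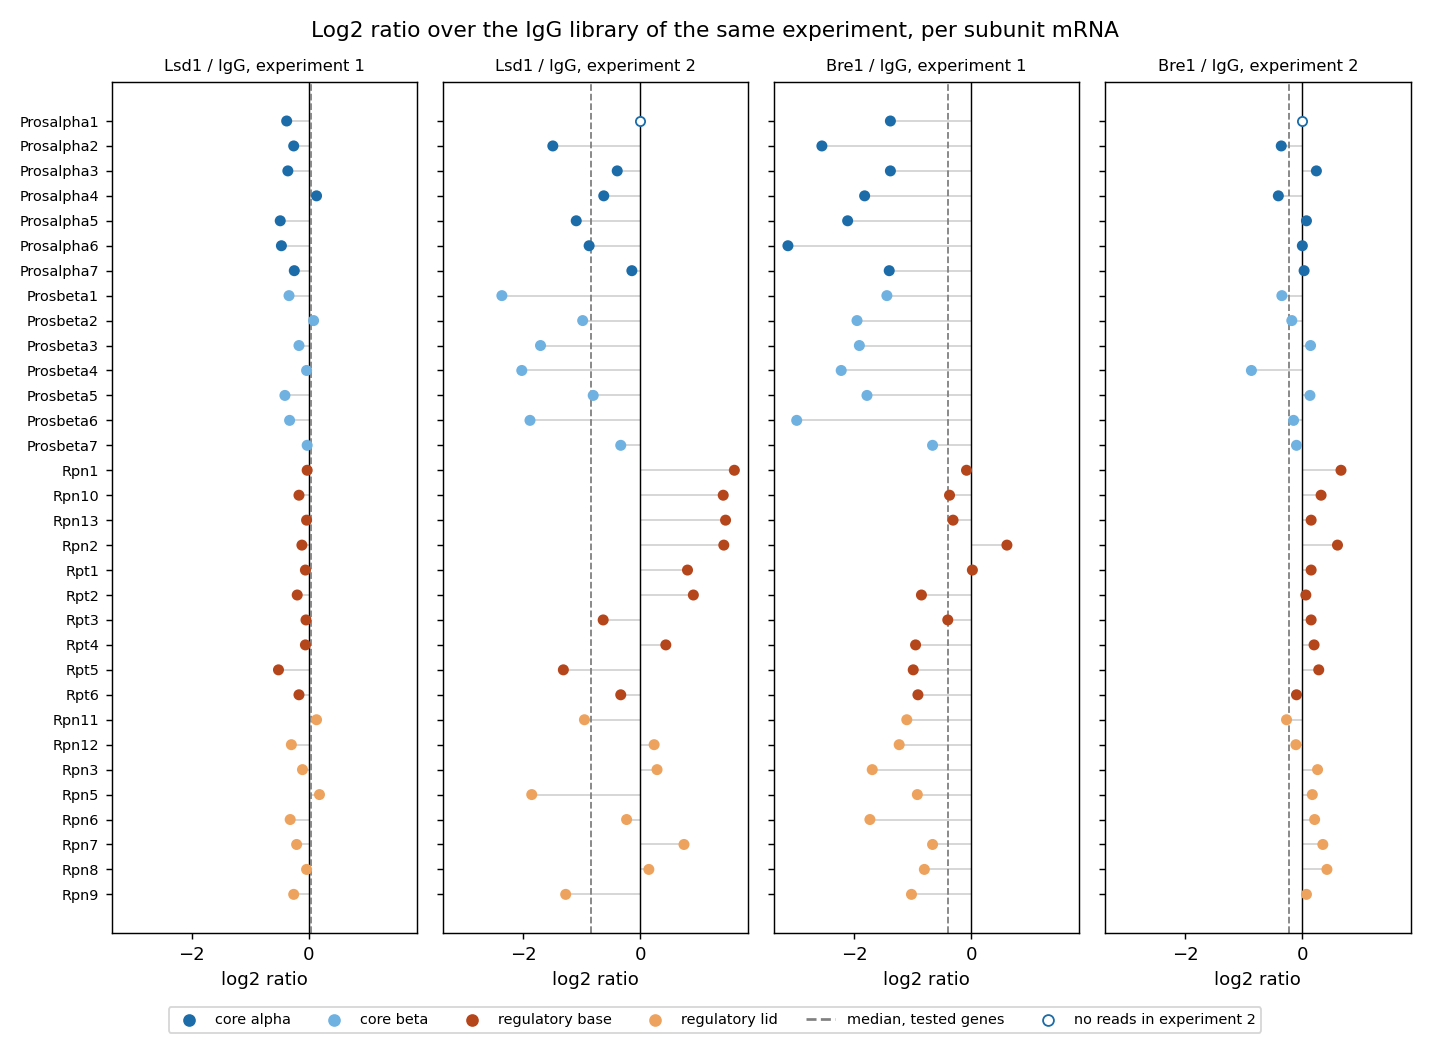
Log2 ratio of each ovary-type mRNA over its IgG partner, with a panel for each antibody and experiment; points are single ratios coloured by role, the dashed line is the median of all tested genes, and the open points are Prosalpha1, which had no reads in experiment 2. Ratios lie near 0 for Lsd1 in experiment 1, from -2.36 to 1.61 for Lsd1 in experiment 2, and mostly below 0 for Bre1 in experiment 1.

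The Bre1 libraries were compared with IgG in the same way. No subunit mRNA passed the test. The lowest values were those of core mRNAs in experiment 1, where all 14 core mRNAs lay below IgG and 13 of them below a log2 ratio of -1. Of all 32 members 30 lay below IgG and 18 below -1 there, against 68.5% and 24.6% of all tested genes. In experiment 2 11 of the 31 measured were below 0 and none below -1, against 73.4% and 3.83% of all tested genes. Below IgG in both experiments were 11 members, 8 of the core and 3 of the regulatory particle, where 52.4% of all tested genes were, and above it in both were Rpn2 and Rpt1, where 10% were.

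The median Bre1 log2 ratio of the 32 mRNAs was -1.16 in experiment 1 against -0.40 over all tested genes, and 0.13 over 31 mRNAs in experiment 2 against -0.22. The subunit mRNAs therefore lay below the typical gene in experiment 1 and above it in experiment 2. The Lsd1 ratios, which share these IgG libraries, had the same places, though not in experiment 2 with the values as deposited. For Bre1 both places held under the same alternatives, with gaps of -1.22 to -0.375 and of 0.165 to 0.487 over the 31 mRNAs. The Bre1 median in experiment 2 was nonetheless -0.464 with values as deposited. In limma 0 of 32 members passed an adjusted p of 0.05, all with an adjusted p of 1.00, against 2 of 6687 genes, 0.0299%. At an unadjusted p under 0.05 limma gave 3 members, Prosbeta4, Prosalpha6 and Prosbeta6, against 260 genes, 3.89%. On counts, edgeR called 0 members and 0 genes, and DESeq2 0 members and 1 gene, 0.015%. The largest fitted changes of like sign in both experiments were those of Prosalpha6 (-1.57, SE 0.78), Prosbeta6 (-1.57, SE 0.79), Prosbeta4 (-1.55, SE 0.73), Prosalpha2 (-1.46, SE 0.79), Prosalpha4 (-1.11, SE 0.78) and Prosbeta2 (-1.06, SE 0.79). Above IgG were Rpn2 (0.60, SE 0.83) and Rpt1 (0.08, SE 0.80), which with values as deposited stood at -0.56 and -1.05. Core mRNAs had 2 to 19 fragments each in the Bre1 library of experiment 1, so their values there carry large counting error. Without that library the fitted changes of Prosalpha6, Prosbeta6 and Prosbeta2 were 0.14, 0.29 and 0.13, while their ratios to the IgG partner in experiment 2 were 0.00 (just below 0), -0.15 and -0.18. The fitted signs come here, too, from another antibody's libraries through the experiment term, and they do not place Bre1 above IgG.

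The median of the regulatory mRNAs lay above that of the core mRNAs in every ratio, a contrast chosen after the values were seen and given without a test. The difference was 0.18 for Lsd1 and 0.99 for Bre1 in experiment 1, and 1.25 for Lsd1 and 0.29 for Bre1 in experiment 2, on the log2 scale. For Lsd1 in experiment 1 the ranges coincided, at -0.49 to 0.13 for the core and -0.52 to 0.18 for the regulatory particle. In the Lsd1 ratios of experiment 2 the core median was -0.98 and the regulatory median 0.27, with no core mRNA above the latter. In the Bre1 ratios of experiment 1 the core median was -1.87 and the regulatory median -0.88, and all 18 regulatory mRNAs lay above the core median. The base and the lid differed as well: the base median was 0.86 and the lid median -0.04 for Lsd1 in experiment 2, and -0.38 and -1.06 for Bre1 in experiment 1. Beta mRNAs had the lowest median of all roles for Lsd1 in experiment 2, at -1.70 against -0.75 for the 6 measured alpha mRNAs. The medians also differed without any antibody difference: between the IgG libraries, experiment 2 over experiment 1, the core median was -1.12 and the regulatory median 0.03, a difference of 1.16. These IgG levels are FPKM in experiment 1 and RPKM in experiment 2, so experiment and quantification cannot be told apart in this difference. In sums of reads without Prosalpha1, regulatory mRNAs outnumbered core mRNAs by factors of 1.27 (IgG), 1.37 (Lsd1) and 3.92 (Bre1) in experiment 1, and of 3.31, 11.2 and 4.48 in experiment 2. Behind the factor of 11.2 stand 612 core and 6862 regulatory reads. Without the Lsd1 library of experiment 2 the fitted difference for Lsd1 was -0.14 in place of 0.71, and without the Bre1 library of experiment 1 that for Bre1 was 0.05 in place of 0.59. These fits draw on the third antibody as above, and the remaining pairs gave 0.18 and 0.29 directly.

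Core mRNAs are short, with a median exon length of 971 bases and a range of 815 to 1215, and regulatory mRNAs longer, with a median of 1589 and a range of 995 to 3412. Role and length therefore move together, and their parts in the ratios cannot be told apart over most of the range. Across 31 ovary-type mRNAs (Prosalpha1 left out), log2 ratio and exon length had a Pearson correlation of 0.28 and 0.63 for Lsd1 and 0.71 and 0.73 for Bre1 in experiments 1 and 2. For 6464 other protein-coding genes the correlations were 0.41, 0.00, 0.53 and 0.18. Within a role the values in this order were 0.23, 0.74, 0.28 and 0.36 for 13 core mRNAs and 0.12, 0.30, 0.48 and 0.76 for 18 regulatory mRNAs, so most were lower than over both roles together. These values describe genes within single pairs of libraries that share depth and fragment size. Both roles have members from 995 to 1215 bases, 5 of the core and 2 of the regulatory particle. There the 5 core mRNAs had Lsd1 ratios of -0.98 to -0.33 in experiment 2 and Bre1 ratios of -3.13 to -0.66 in experiment 1. Rpn11 stood at -0.95 and -1.10 in these ratios, within the core range, and Rpn12 at 0.24 and -1.23, above it in the first and within it in the second. So few members of like length do not separate role from length. For 1037 protein-coding genes of 1000 to 1500 bases the medians were -0.83 and -0.77. With the trend on length over all tested genes removed, the core and regulatory medians were -0.108 and 1.12 for Lsd1 in experiment 2, and -0.999 and -0.235 for Bre1 in experiment 1. Over other protein-coding genes the Lsd1 ratio of experiment 2 had a correlation of 0.00 with length. Removing that trend could thus hardly change the difference between the roles there, and it does not separate role from length.

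**Figure D3:**
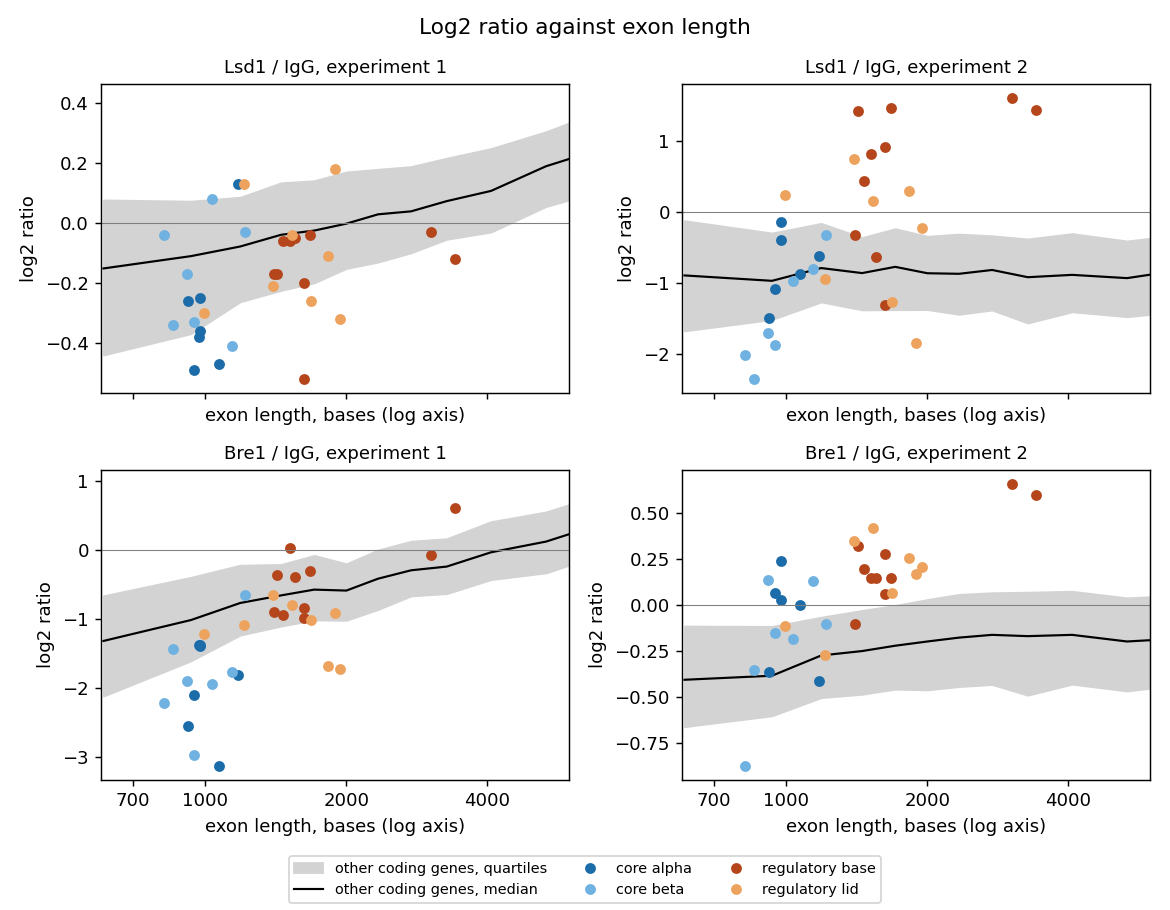
Log2 ratio over IgG against exon length in bases (log axis) for the ovary-type mRNAs, coloured by role, in each antibody and experiment, with the median (line) and quartiles (band) of other protein-coding genes by length; Prosalpha1 is left out of the experiment 2 panels and the vertical scales differ. For Lsd1 in experiment 2 7 of 10 base mRNAs lie above 0, up to 1.61, and for Bre1 in experiment 1 most core mRNAs lie below the band, down to -3.13.

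The ratio of Lsd1 in experiment 2 and that of Bre1 in experiment 1 share no library, and the order of the members in them was alike. Across 31 mRNAs Pearson's r was 0.69 and Spearman's rho 0.70, against 0.29 and 0.27 over 6464 other protein-coding genes, all of which share exon length and base composition between the ratios. Within the 18 regulatory mRNAs r was 0.54 and within 13 core mRNAs 0.42. Of the 8 highest members 6 were shared: Rpn1, Rpn2, Rpn7, Rpn10, Rpn13 and Rpt1. Of the 8 lowest 4 were shared: Prosalpha2, Prosbeta3, Prosbeta4 and Prosbeta6. The other pair of ratios without a common library, Lsd1 in experiment 1 and Bre1 in experiment 2, had an r of -0.10 and a rho of -0.03 across the same mRNAs. The likeness was thus seen between the ratios of the 2 libraries that stood apart in genes detected, and the part of the low number of genes detected in it was not tested.

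**Figure D4:**
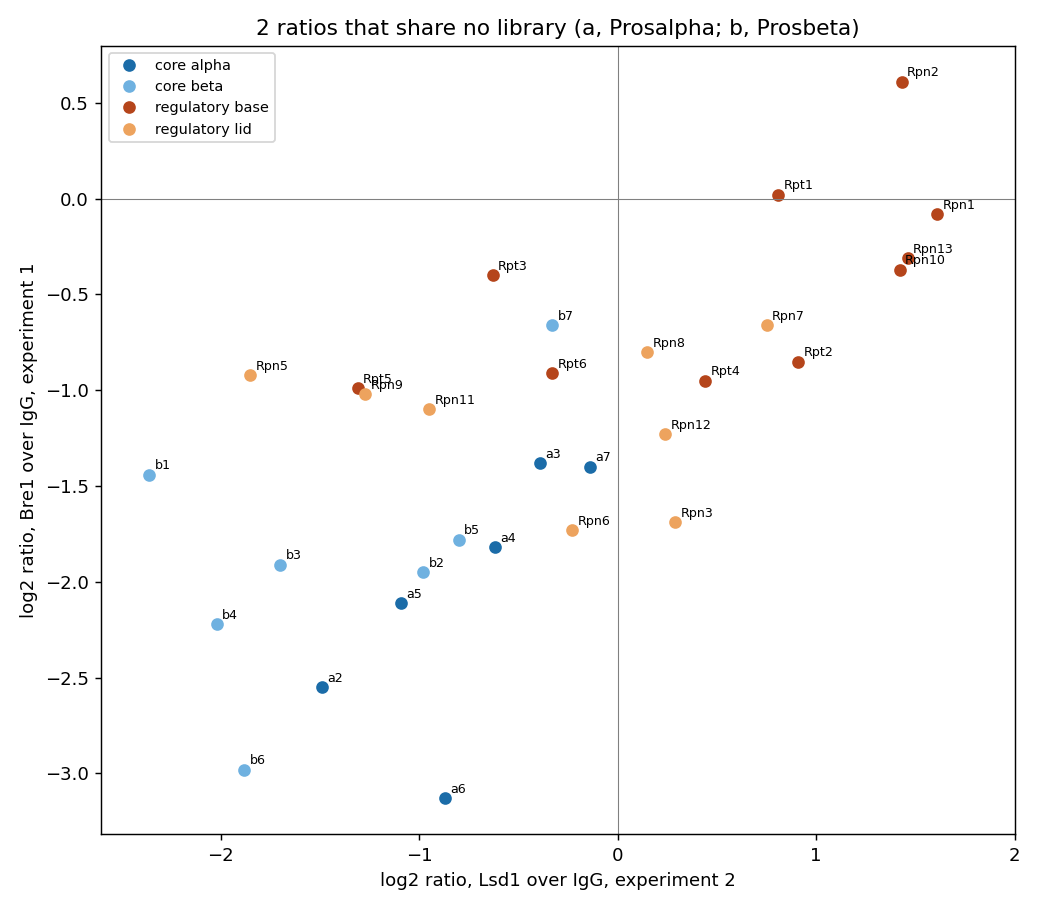
Log2 ratio of Lsd1 over IgG in experiment 2 (horizontal) against that of Bre1 over IgG in experiment 1 (vertical) for 31 ovary-type mRNAs, coloured by role and labelled by name, with a for Prosalpha and b for Prosbeta. Of the 10 base mRNAs 7 lie right of 0, led by Rpn1 at 1.61 and Rpn13 at 1.46, and Rpn2 and Rpt1 also lie above 0 on the vertical axis, while all core mRNAs lie at the lower left.

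Reads that span exon junctions were available for experiment 2. In the ovary-type mRNAs they made up 13.7% of exon reads with IgG, 13.1% with Bre1 and 7.0% with Lsd1, while all tested protein-coding genes had 14.7%, 14.1% and 10.2%. Intron reads were rare in the subunit genes, at 0.235% of gene reads with IgG, 0.211% with Bre1 and 0.0134% with Lsd1. In all tested protein-coding genes they made up 7.3%, 1.66% and 3.16%. These shares are not scaled by intron length, and Prosbeta3, Rpn7, Rpn12 and Rpt1 have 1 exon each. Less intron sequence and less unspliced RNA therefore cannot be told apart in this comparison. Among 26 subunit mRNAs with introns and reads in every library, none lacked junction reads with IgG or Bre1, and 10 lacked them with Lsd1. For Rpn2, 236 of 3363 reads with IgG and 386 of 5148 with Bre1 spanned a junction, 7.02% (exact interval 6.18 to 7.93%) and 7.5% (6.79 to 8.25%). With Lsd1 it was 0 of 1765 reads, for which the exact interval reaches 0.209% and a limit of 3 reads of the total 0.17%. Of the 16 members that had junction reads with Lsd1, 12 had a lower share than with IgG and 4 a higher one. Rpn11, for example, stood at 23.4% with IgG and 5.56% with Lsd1, and Prosbeta7 at 25.8% and 6.41%. The higher ones were Rpn1 (4.51% and 13.1%), Rpn3, Rpt4 (40.8% and 49.0%) and Rpt5 (16.2% and 30.9%). With Bre1 the interval did not overlap that of IgG for 6 of 27 members. Of these, 4 were higher (Rpn1, Rpn11, Rpt4 and Rpt6) and 2 lower (Rpn5 and Rpn10). Rpn11 stood at 35.4% with Bre1, and Rpn10 at 5.34% against 12.0% with IgG. With Lsd1 the interval did not overlap that of IgG for 18 of 26 members, 15 of them lower and 3 higher. Neither these counts nor the 12 and 4 above were made for other protein-coding genes, so they describe the members only. Among mRNAs with at least 50 reads with Lsd1 and at least 5% junction reads with IgG, 6 of 18 members (33.3%) had none with Lsd1: Prosalpha3, Prosalpha4, Prosbeta2, Rpn2, Rpn5 and Rpt3. Of 2161 other protein-coding genes chosen alike 515 (23.8%) had none with Lsd1 and 0 had none with Bre1. Single genes without junction reads were thus found across protein-coding genes in that library, and its cause was not tested.

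**Figure D5:**
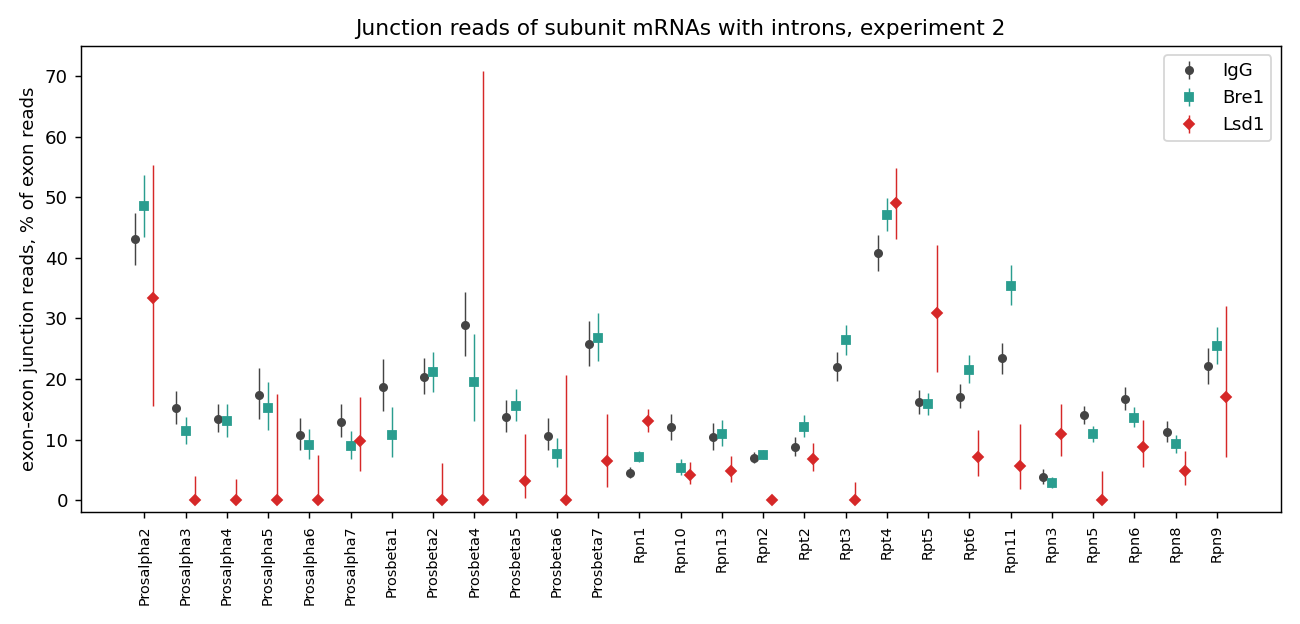
Exon-exon junction reads in percent of exon reads for each subunit mRNA with introns in the IgG, Bre1 and Lsd1 libraries of experiment 2; bars are exact 95% binomial intervals and cover counting error only, and Prosbeta1 has no Lsd1 point because it had no reads there. IgG and Bre1 intervals overlap for all but 6 of 27 mRNAs, a count not made for other genes. Lsd1 points lie at 0 for 10 mRNAs and at 49.0% for Rpt4.

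The 15 testis-type paralogues were next to absent. Prosalpha3T, Prosalpha4T1, Prosalpha4T2, Prosalpha6T, Prosbeta4R1, Prosbeta4R2, Prosbeta5R2, Rpn12R and Rpt4R had no read in any library. In experiment 1 there were 2 fragments with IgG, both of Rpt3R, 2 with Lsd1 (1 each of Rpt3R and Rpn13R) and none with Bre1. In experiment 2 there were 36 (IgG), 0 (Lsd1) and 15 (Bre1) reads. Rpn13R gave 24 of the 36, but its locus lies inside rg and CG15465 on the same strand and none of its reads was unique. Rpt3R had 6 reads with IgG and 10 with Bre1, an RPKM of 0.0853 and 0.0922. The remaining paralogues had at most 3 reads: Prosbeta2R1 2 and 3, Prosbeta2R2 1 and 1, Prosbeta5R1 2 and 0, and Rpt6R 1 and 1 with IgG and Bre1. A count of 0 in experiment 2 allows an RPKM of up to 0.0376 to 0.0746 (IgG), 0.0383 to 0.0760 (Lsd1) and 0.0244 to 0.0484 (Bre1), depending on the gene's length. None of 20 testis markers reached a level of 1 in any library, and their summed level was at most 1.12. The ovary-type subunits had, by contrast, medians of 20.9 FPKM (core without Prosalpha1) and 10.1 FPKM (regulatory) in the IgG library of experiment 1. CG30382, named Prosalpha1R in the reference gene table, is not among the 15 paralogues because experiment 2 lists it under the symbol CG30382. It shares its reads with Prosalpha1, so its own level is unknown and it cannot be called absent.

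Of 81 other genes listed for the ubiquitin-proteasome pathway 78 were found and all 78 were tested. They include ubiquitin genes, conjugating enzymes, ligase subunits, shuttle factors and assembly factors. None passed the limma test for either antibody (0 higher and 0 lower), against 0.0299% of all tested genes for each antibody. At an unadjusted p under 0.05 limma gave 1 of 78 for Lsd1 and 4 of 78 for Bre1, against 2.35% and 3.89% of all tested genes. The median log2 ratios of the pathway list were 0.04 and -1.11 for Lsd1 and -0.80 and -0.13 for Bre1 in experiments 1 and 2. The ovary-type subunits, at -0.17 and -0.39 and at -1.16 and 0.13, stood below the pathway list in experiment 1 and above it in experiment 2. The proteasome assembly chaperone Pomp had ratios of -0.09 and 0.53 for Lsd1 and -0.50 and -0.16 for Bre1, and the lid subunit gene Sem1, which the naming rule does not reach, -0.57 and -1.87 and then -0.62 and -0.64. With the same sign for Lsd1 in both experiments, the largest fitted changes above IgG were those of the shuttle factor rngo (0.41, SE 0.74), Hrd3 (0.31, SE 0.69) and Plap (0.19, SE 0.74). Below IgG they were those of maf-S, which encodes a partner of the transcription factor Cnc (-1.50, SE 0.64), the ligase subunit SkpA (-1.29, SE 0.83) and the ubiquitin gene Ubi-p5E (-1.25, SE 0.80). For Bre1 they were Plap (0.79, SE 0.74), poe (0.78, SE 0.73) and the deubiquitinase gene faf (0.73, SE 0.76) above, and the conjugating enzyme genes eff (-2.17, SE 0.83) and Ubc6 (-1.72, SE 0.72) and the ligase subunit Roc1a (-1.71, SE 0.80) below.

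Across 84 ribosomal protein genes the median log2 ratio was -0.48 and 0.46 for Lsd1 and -2.29 and 0.01 for Bre1, and across 33 translation initiation factor genes it was -0.14 and -0.43 and then -1.05 and 0.10. The medians of the 32 subunit mRNAs lay close to those of the initiation factors in each of the 4 ratios and farther from those of the ribosomal proteins. The median exon length was 1304 bases for the subunits, 1834 for the initiation factors and 921.5 for the ribosomal proteins, against 2104 for all tested genes. No test was made of the differences between these lists.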

How the data were processed

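Ovary RNA recovered with IgG, anti-Lsd1 or anti-Bre1 was sequenced in 2 experiments as 6 libraries, with a TruSeq kit that does not mark strand and without selection of polyadenylated RNA, per the labels' protocols. Build dm6 and the tools Cufflinks, TopHat, SAMtools 0.1.18.0 and Bowtie2 2.0.6.0 are named in the submitters' processing notes. The files of experiment 1 hold transcript FPKM with its confidence limits, and an unused coverage signal, as deposited by the authors, per the file headers. Gene tables with RPKM, TPM (not used) and read counts were deposited for experiment 2, per the file headers, by a program not given in the sources used here. Fits had been planned on gene values, so FPKM was summed per gene, and experiment and quantification cannot be told apart. Numbers of fragments were recovered in experiment 1 from the confidence limits, n being the squared ratio of FPKM to its error, and modelled for genes with several transcripts. Of low genes with 1 transcript 80.0% to 84.2% came out whole within 0.05 of a fragment.

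Genes were joined by gene ID (17021) or symbol (80), 31 without an estimate were left out, and 17070 were used. Genes at 1 or more in at least 2 libraries were tested (6687). Scaling used the median ratio over the 1028 genes at 1 or more in every library; log2(scaled value + 1) was then fitted with limma 3.58.1 (trended eBayes, R 4.3.3) on antibody plus experiment over all 6 libraries, with 2 residual and 119 prior degrees of freedom and Benjamini-Hochberg adjustment over all tested genes. A gene's SE therefore comes mostly from genes of like abundance. The experiment was the replicate block, since per the labels the antibodies of an experiment received parts of a common lysate. To check this pairing, deviations from antibody means were correlated, which gave 0.47 (IgG, Lsd1), 0.51 (IgG, Bre1) and 0.11 (Lsd1, Bre1), values that the different quantification can also give. On simulated data for Lsd1 over IgG (6636 genes tested), 95% of 100 genes changed by a log2 of 3 and 75% of 100 changed by a log2 of 2 were called. There, every library was drawn around the IgG level of its experiment, and a changed gene had the same change in both experiments. The real ratios often differed between experiments, so these percentages check the procedure and do not give the power of the test on the real libraries. edgeR 4.0.16, DESeq2 1.42.0 and the other alternatives are given in the closing section.

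All 47 members were found in the reference gene table by symbol with equal start and end. Members with the largest fitted change of the same sign in both experiments, up to 6 per direction, were described in full, and up to 3 per direction of the pathway list. The members and lists were chosen with earlier results of these data known. The contrast of core and regulatory mRNAs, the medians without Prosalpha1 and the sum of Prosalpha1 with CG30382 were added after seeing the data.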

Additional observations from a re-analysis of the deposited data

How the results depend on the processing

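The count of subunit mRNAs called was 0 for both antibodies under all alternatives except that without the Lsd1 library of experiment 1, where it was 5 for Lsd1, a range of 0 to 5 over the left-out libraries. In these fits the lone library of an antibody is assumed to vary like the other groups. Without the replicate block, that is without the pairing by experiment, 0 genes were called for Lsd1 and 0 for Bre1, in place of 2 each, and no member's call changed. Over all genes the calls for Lsd1 were 0 at a pseudocount of 0.1, 15 at 5, 0 with no filter, 0 with values as deposited, upper quartile scaling, quantile normalization, no mean-variance trend, the trend on length removed and edgeR, 10 with DESeq2, and 0 to 1712 with each library left out. For Bre1 they were 0 at a pseudocount of 0.1, 1 at 5, 0 with no filter, 5 at a minimum of 5, 0 with values as deposited, upper quartile scaling, quantile normalization, no trend, length removed and edgeR, 1 with DESeq2, and 0 to 50 with each library left out. The fitted median of the subunit mRNAs for Lsd1, -0.26, was -1.16 with values as deposited, 0.40 with upper quartile scaling, 0.01 with quantile normalization, 0.17 with the length trend removed, 0.24 with edgeR, 0.28 with DESeq2, 0.10 without the Lsd1 library of experiment 2, and -0.71 to 0.10 over the left-out libraries. The Bre1 median, -0.62, was -1.55 with values as deposited, -0.69 at a pseudocount of 0.1 and -0.37 at 5. It was -0.20 with upper quartile scaling, -0.24 with quantile normalization and with edgeR, -0.30 with DESeq2 and -0.05 with the length trend removed. Over the left-out libraries it ran from -1.29 to 0.15, the last without the Bre1 library of experiment 1. The regulatory median less the core median was -0.14 to 1.40 for Lsd1, the first without the Lsd1 library of experiment 2, and 0.05 to 1.31 for Bre1. Over the left-out libraries the Lsd1 change ran from -2.50 to 0.39 for Prosbeta6, -2.24 to 0.30 for Prosbeta4, -2.11 to 0.35 for Prosbeta3 and -1.98 to 0.29 for Prosalpha2, lowest without the Lsd1 library of experiment 1 and above 0 without that of experiment 2, although their ratios to the IgG partner in experiment 1 were all below 0. For Bre1, Rpn2 was -0.56 and Rpt1 -1.05 with values as deposited, and over the left-out libraries Rpt1 ran from -0.15 to 0.32, Prosalpha6 from -3.17 to 0.14, Prosbeta6 from -3.31 to 0.29 and Prosbeta2 from -2.17 to 0.13, the last 3 above 0 without the Bre1 library of experiment 1, although none of their ratios in experiment 2 was above 0. With a library left out, the IgG level of an experiment is estimated in part from the third antibody through the experiment term, so these values do not describe an antibody against its IgG partner alone. The cause of the other changes was not tested. Low counts limit the core mRNAs most, with 2 to 19 fragments each in the Bre1 library of experiment 1 and 0 to 103 reads in the Lsd1 library of experiment 2. That Lsd1 library held 1619605 exon reads outside ribosomal RNA, against 1430768 fragments with IgG in experiment 1, and the cause of its low core counts was not tested.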
